A study of Mus musculus with 12 samples.

Results

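The genes described here encode 6 proteins that carry the signal of the T cell receptor from the cell surface into the cell: Lat, Zap70, Lcp2, Prkcq, Themis and Ubash3a. They were taken by name, and every probe annotated to them was used, which gave 14 probes of the 45274 that held values. Of these, 11 probes, with at least 1 for each of the 6 genes, were detected on at least 4 of 12 arrays, as were 13571 probes in all. A probe counted as detected on an array when its signal exceeded the negative control beads at a detection p under 0.01.

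When the T cell receptor binds its ligand, the kinase Lck phosphorylates the CD3 chains, and the kinase Zap70 docks on them and phosphorylates the membrane scaffold Lat and the cytosolic adaptor SLP-76, the product of Lcp2. Lat and SLP-76 together hold phospholipase C gamma, whose product diacylglycerol activates protein kinase C theta, the product of Prkcq, which drives the NF-kB arm. Themis binds Lat-containing complexes and is needed for thymocyte selection, and Ubash3a (TULA, Sts-2) dampens the receptor signal. Natural killer cells use Zap70, Lat and SLP-76 behind their own activating receptors, which signal through the adaptors Fcer1g, Tyrobp (DAP12) and Cd247.

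RNA levels came from Illumina bead arrays, with 4 samples each of ITNK, LAK and DN3 cells. ITNK cells were derived in vitro from DN3 thymocytes and are natural killer-like cells that arise when Bcl11b, a T-lineage transcription factor, is lost. LAK cells are natural killer cells expanded with IL-2, and DN3 cells are labelled as the parental T cells, thymocytes that carry neither CD4 nor CD8. All 12 samples carry the same protocol text, which describes cells of Cre-ERT2; Bcl11b flox/flox mice given 1 µM 4-hydroxytamoxifen for 48 h in medium with Flt3 ligand and IL-7. Cre-ERT2 is a recombinase that acts once tamoxifen is present, and the loxP-flanked Bcl11b allele is its target. Sorted DN3 cells, of Bcl11b CKO/CKO and also of Bcl11b CKO/+ genotype in that text, were then grown on OP9-DL1 stroma with 100 ng/ml IL-2 until day 14. Flt3 ligand and IL-7 were each at 5 ng/ml in that text, which also names 1000 U/ml IL-2 for splenic cells. The text does not say which steps the LAK and DN3 samples had, so genotype, tamoxifen, stroma and IL-2 dose cannot be assigned to those groups. Strain is labelled C57B6 for ITNK, C57B8 for LAK and C57B7 for DN3, a run that leaves the true strain of each group uncertain. The labels do not tell whether replicate arrays are separate mice or cultures, so each p-value covers no more than the spread among these 12 samples.

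Levels are log2 values after background correction and quantile normalization, and each difference is the log2 level of the group named first minus that of the second. Tests are limma's moderated test over 8100 detected genes, each represented by its brightest detected probe, and adjusted p-values are Benjamini-Hochberg values with a threshold of 0.05. The arrays lie on 2 slides: slide 1 holds the 4 LAK arrays and ITNK 1 and 2, and slide 2 holds the 4 DN3 arrays and ITNK 3 and 4. Between 26.1% and 29.0% of probes were detected per array, and array median intensities ranged between 71.4 and 75.3 for slide 1 and between 58.9 and 63.3 for slide 2. LAK and DN3 cells share no slide, so for that comparison slide and cell type cannot be told apart other than through the ITNK arrays.

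The probe for Bcl11b stood at 9.10, 8.49, 8.38 and 8.39 in ITNK cells, at 6.00, 6.01, 5.25 and 5.79 in LAK cells and at 11.85, 11.41, 11.92 and 11.89 in DN3 cells. The groups did not overlap, and ITNK cells lay below DN3 cells and above LAK cells. Which part of the transcript the probe reads was not analysed here, so it may lie outside the deleted stretch. The labelled cell types were set against marker genes. The summed signal of 9 detected T cell markers was 10200 to 13600 in ITNK, 988 to 1630 in LAK and 26000 to 29400 in DN3 cells, and that of 11 natural killer markers was 18300 to 24000, 30900 to 36000 and 1060 to 1750 in the same order. The natural killer receptor gene Ncr1 and the recombinase gene Rag2 each had probes that failed the detection filter. The summed signal of 8 detected DN3 markers was 481 to 744 in ITNK, 236 to 328 in LAK and 1560 to 1670 in DN3 cells. Cd8b1, the CD8 beta chain, averaged 10.74 ± 0.47 in ITNK, 6.93 ± 1.24 in LAK and 12.68 ± 0.26 in DN3 cells (SD, n = 4 each). Cd8a, the CD8 alpha chain, failed the detection filter. The Cd8b1 RNA thus raises, and does not settle, a doubt about the CD8-negative label of the DN3 samples. Surface CD8 was not measured.

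In ITNK cells 5 of the 6 genes were lower than in DN3 cells, none was higher, and Zap70 did not pass the test. These calls use each gene's brightest probe, and for Lcp2 another probe read differently, as described with that gene. For Themis another detected probe did not pass between ITNK and LAK cells (0.28, adjusted p = 0.128). Its call between ITNK and DN3 cells depended on the processing. Ubash3a was detected on the 4 DN3 arrays alone and passed the detection filter through them. Its place among the genes lower than, or not overlapping, DN3 cells was thus favoured in advance and is no added support. Among all 8100 genes 28.2% were lower and 23.5% higher in that comparison, 51.7% in either direction. Against LAK cells, Lat, Prkcq and Themis were higher in ITNK cells and the other 3 did not pass, where 18.0% of all genes were higher, 15.7% lower and 33.7% differed in either direction. In LAK cells 5 of the 6 were lower than in DN3 cells, against 31.9% of all genes lower, 28.6% higher and 60.5% differing in either direction. Over the 6 genes the median ITNK minus DN3 difference was -0.87, beside -0.04 over all genes. The median ITNK minus LAK difference was 0.45 beside -0.01, and that of LAK minus DN3 was -1.34 beside -0.02. The compared arrays did not overlap in 4 of the 6 genes between ITNK and DN3 cells (47.8% of all genes), in 3 between ITNK and LAK cells (31.8%) and in 5 between LAK and DN3 cells (56.4%). Lat, Prkcq and Themis thus were lower than in DN3 cells and higher than in LAK cells, both past the test, a pattern that 554 of all genes (6.84%) had. Themis was detected on 0 LAK arrays and Lat on 1, so both passed the detection filter through the ITNK and DN3 arrays. Their places in the counts against LAK cells and in this pattern were favoured in advance and are no added support. In whole populations, fewer cells that express a gene and less RNA per cell cannot be told apart.

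**Figure D1:**
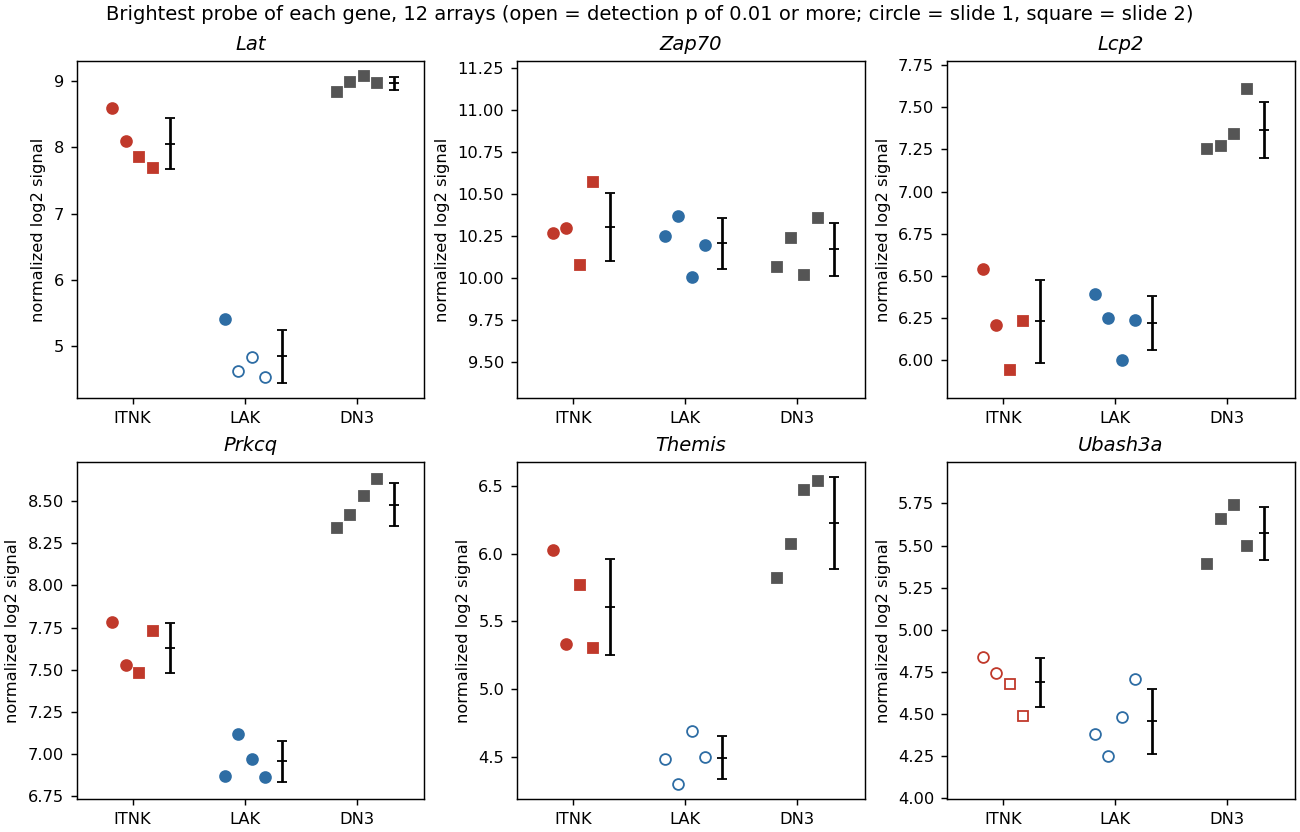
Log2 level (y axis) of the brightest detected probe of each of the 6 genes on every array, with ITNK, LAK and DN3 cells from left to right in each panel. Circles are slide 1, squares slide 2, open points undetected, and bars the mean with its SD (n = 4 arrays). Lat, Prkcq and Themis stand lowest in LAK and highest in DN3 cells with ITNK cells between, Zap70 stands near 10 in all 3 groups, Lcp2 is high in DN3 cells alone by this probe, and Ubash3a was detected in DN3 cells alone.

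Zap70, the kinase at the head of the pathway, was the 1 gene of the 6 that passed in no comparison by its brightest probe. Its gene lies on chromosome 1 (GRCm38.p6, 36761798 to 36782821). Its brightest probe, ILMN_2513870, read 10.27, 10.30, 10.08 and 10.57 in ITNK cells, 10.25, 10.37, 10.01 and 10.20 in LAK cells and 10.07, 10.24, 10.02 and 10.36 in DN3 cells. The 3 groups overlapped throughout. ITNK minus DN3 was 0.13 (95% confidence interval -0.13 to 0.40, adjusted p = 0.385), ITNK minus LAK was 0.10 (-0.17 to 0.36, adjusted p = 0.583) and LAK minus DN3 was 0.04 (-0.23 to 0.30, adjusted p = 0.816). These intervals leave room for an ITNK excess of up to 0.40 over DN3 and 0.36 over LAK cells. Before normalization the same probe had intensities of 1228.7 to 1739.2 in ITNK cells, 1061.6 to 1715.8 in LAK cells and 735.3 to 1097 in DN3 cells, so the ITNK and DN3 ranges did not overlap on the scanner scale. Over the alternative settings the ITNK minus DN3 difference ranged between 0.05 and 0.30, with no adjusted p below 0.0545.

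Of the other Zap70 probes, 1 passed in 1 comparison. ILMN_3005740 averaged 9.24 ± 0.18 in ITNK, 9.16 ± 0.17 in LAK and 9.08 ± 0.07 in DN3 cells (SD, n = 4 each), and none of its comparisons passed among all 13571 detected probes. ILMN_1223542 averaged 6.37 ± 0.21 in ITNK, 6.54 ± 0.16 in LAK and 6.18 ± 0.12 in DN3 cells, and LAK exceeded DN3 by 0.36 (adjusted p = 0.0207). Over all detected probes 59.6% passed in that comparison. With slide as a block the LAK excess of this probe was 0.14 and no longer passed (adjusted p = 0.61). The Zap70 probes correlated with each other over the 12 arrays at r between 0.51 and 0.82, values that share the arrays and their normalization.

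Lat, the membrane scaffold that Zap70 phosphorylates, had the widest range of the 6 genes. It lies on chromosome 7 (126363827 to 126369705). Its brightest probe, ILMN_2660551, read 8.59, 8.09, 7.86 and 7.69 in ITNK cells, 5.41, 4.62, 4.83 and 4.53 in LAK cells and 8.84, 8.99, 9.07 and 8.97 in DN3 cells. No groups overlapped, and in LAK cells the probe was detected on 1 of 4 arrays. Mean scanner intensities before correction were 327 ± 76.6 in ITNK cells, 85.4 ± 14.7 in LAK cells and 451 ± 26.0 in DN3 cells (SD, n = 4 each).

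Lat was thus lower by 0.91 on the log2 scale in ITNK than in DN3 cells (log2 difference -0.91, SE 0.20, 1.88-fold, adjusted p = 0.00181). It was higher in ITNK than in LAK cells by 3.21 (SE 0.20, adjusted p = 2.58e-08), and LAK against DN3 was -4.12 (adjusted p = 6e-10). Since 3 of 4 LAK arrays did not detect the probe, the size of both differences depends on the background. Without background correction ITNK against LAK was 1.84 and LAK against DN3 -2.61, and with the authors' processed values they were 1.99 and -2.65, each still past the test.

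The ITNK arrays of Lat differed by slide, with means of 8.34 on slide 1 and 7.77 on slide 2. The ITNK arrays of slide 2 alone lay below the DN3 arrays of that slide by a log2 difference of -1.19 (adjusted p = 0.000113). Those of slide 1 alone lay above the LAK arrays by 3.49. The second Lat probe, ILMN_1242795, which is annotated to a cDNA clone, read 5.87, 5.76, 5.58 and 5.41 in ITNK cells, 4.44, 4.50, 4.50 and 4.50 in LAK cells and 6.12, 6.21, 6.42 and 6.56 in DN3 cells. It ordered the groups the same way without overlap, and it was detected on 0 of 4 LAK arrays. Its difference was -0.67 for ITNK against DN3 (SE 0.12, adjusted p = 0.000384 over all detected probes, of which 49.7% passed). It was 2.25-fold higher in ITNK than in LAK cells (adjusted p = 4.01e-06, where 31.7% of probes passed). It was 3.58-fold lower in LAK than in DN3 cells. Over the alternative settings these 2 log2 differences were as small as 0.47 and -0.80. Where 0 arrays of a group detected a probe, its fold sets the detected group's mean against each array's lowest detected signal. The probe's own signal was used where that was higher. Such folds belong to this background correction and are not lower limits under other processing. The 2 Lat probes correlated at r = 0.97 over the 12 arrays.

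Lcp2, which encodes the adaptor SLP-76, gave a reading that depended on the probe. The gene lies on chromosome 11 (34046928 to 34092281). The brightest probe, ILMN_1216191, annotated to a cDNA clone, read 6.54, 6.21, 5.94 and 6.23 in ITNK cells, 6.39, 6.25, 6.00 and 6.24 in LAK cells and 7.25, 7.27, 7.34 and 7.61 in DN3 cells. DN3 cells stood apart from both other groups, which overlapped. The log2 difference was -1.14 for ITNK against DN3 (SE 0.13, 2.2-fold, adjusted p = 9.39e-06) and -1.15 for LAK against DN3 (adjusted p = 4.82e-06). ITNK and LAK cells differed by 0.01 (95% confidence interval -0.28 to 0.30, adjusted p = 0.967).

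The probe annotated to a RefSeq transcript of Lcp2, ILMN_1231012, read 5.94, 5.90, 5.92 and 5.98 in ITNK cells, 5.34, 5.55, 5.49 and 5.42 in LAK cells and 5.47, 5.84, 5.81 and 5.70 in DN3 cells. Here ITNK cells were the highest group and did not overlap either other. The difference was 0.23 for ITNK against DN3 (95% confidence interval 0.01 to 0.44, adjusted p = 0.0727), opposite in sign to the cDNA clone probe, and it passed at 0.15 with the authors' processed values (adjusted p = 0.0444). ITNK exceeded LAK by 0.49 (adjusted p = 0.00195). LAK against DN3 was -0.26 (adjusted p = 0.0401), a call lost at -0.11 without background correction (adjusted p = 0.0893), at -0.12 with the authors' values (0.0779) and at -0.23 with slide as a block (0.324). The 2 probes correlated at r = 0.03 over the 12 arrays. The remaining Lcp2 probe, ILMN_1259461, was detected on 1 DN3 array and on no other, and was not tested. The mean over the detected Lcp2 probes differed by -0.45 between ITNK and DN3 cells, so the fall in Lcp2 rests on the cDNA clone probe. That probe's difference was itself -0.72 without background correction and with the authors' values. Its LAK against DN3 difference was -0.72 without background correction.

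**Figure D2:**
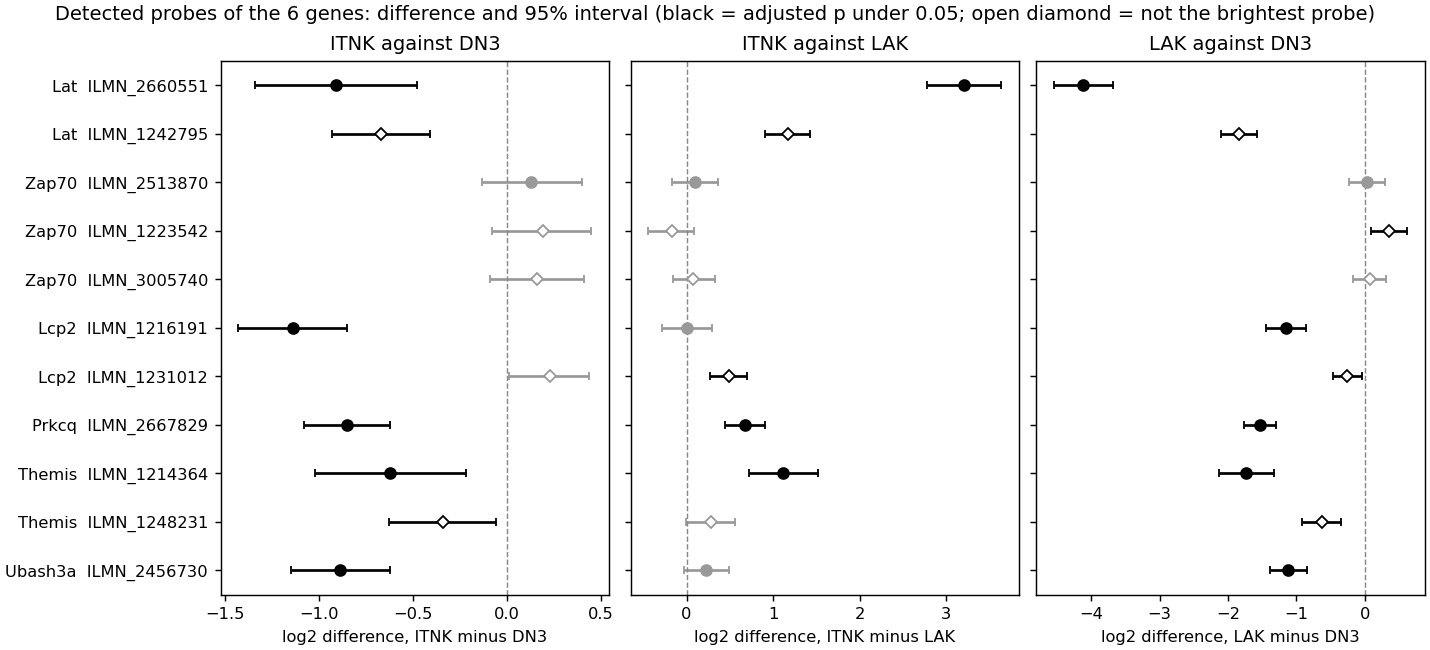
Log2 difference (x axis) with its 95% confidence interval for each detected probe of the 6 genes in each of the 3 comparisons, black where the adjusted p was under 0.05 and grey otherwise, with open diamonds for probes other than the brightest. The Lat and Zap70 probes lie close to their partners for ITNK against DN3, and the Lcp2 probes lie on opposite sides of 0, at -1.14 and 0.23.

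Prkcq, which encodes protein kinase C theta, lay between the other groups in ITNK cells and was detected on all 12 arrays. It lies on chromosome 2 (11171905 to 11301226). ILMN_2667829 read 7.78, 7.53, 7.48 and 7.73 in ITNK cells, 6.87, 7.12, 6.97 and 6.86 in LAK cells and 8.34, 8.42, 8.53 and 8.63 in DN3 cells. No groups overlapped, and the spread within each group was small, with SDs of 0.15, 0.12 and 0.12. The log2 difference was -0.85 for ITNK against DN3 (SE 0.11, 1.8-fold, adjusted p = 1.66e-05) and 0.68 for ITNK against LAK (SE 0.11, 1.6-fold, adjusted p = 0.000216). LAK against DN3 was -1.53 (2.88-fold, adjusted p = 2.46e-08). ITNK cells stood 55.6% of the way from the DN3 to the LAK level, and their means on slides 1 and 2 were 7.66 and 7.61. The other Prkcq probe, ILMN_1225210, was detected on 0 arrays.

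Themis, the thymocyte selection protein, was detected in ITNK and DN3 cells and on no LAK array. The gene lies on chromosome 10 (28668360 to 28883820). ILMN_1214364 read 6.03, 5.33, 5.77 and 5.30 in ITNK cells, 4.48, 4.30, 4.69 and 4.50 in LAK cells and 5.82, 6.07, 6.47 and 6.54 in DN3 cells. ITNK and DN3 cells overlapped at ITNK 1 and DN3 1, and LAK cells lay below both. The difference was -0.62 for ITNK against DN3 (SE 0.19, 1.53-fold, adjusted p = 0.013), with adjusted p up to 0.0467 when an array was left out. The signal was 2.13-fold higher in ITNK than in LAK cells (adjusted p = 0.000343) and 3.26-fold lower in LAK than in DN3 cells (adjusted p = 2.06e-06).

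The levels of Themis lie close to background, and the size of its differences moved with the correction. Without background correction ITNK against DN3 was -0.30 and with the authors' values -0.29, both past the test. ITNK against LAK was 0.46 without background correction, 0.54 with the authors' values and 0.70 as the mean of the detected probes. LAK against DN3 was -0.76 without background correction and -0.84 with the authors' values. A second probe, ILMN_1248231, annotated to a cDNA clone, was detected on 2 ITNK, 0 LAK and 4 DN3 arrays. It averaged 5.06 ± 0.23, 4.78 ± 0.16 and 5.40 ± 0.17 (SD, n = 4 each). It was 1.54-fold lower in LAK than in DN3 cells (log2 difference -0.62, adjusted p = 0.000982). Over the alternative settings that log2 difference was as small as -0.23. ITNK minus LAK was 0.28 (adjusted p = 0.128), which became 0.47 with slide as a block (adjusted p = 0.0236). Its ITNK against DN3 difference of -0.34 (adjusted p = 0.0432) did not pass without background correction (-0.13, adjusted p = 0.0924) or with the authors' values (-0.13, adjusted p = 0.119). The raw intensities of this probe overlapped, at 69.9 to 91.1 in ITNK, 77.4 to 87.8 in LAK and 76.1 to 85.2 in DN3 cells. The last probe, ILMN_1254619, was detected on 0 arrays.

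Ubash3a, which encodes an inhibitor of T cell receptor signalling, was detected on all 4 DN3 arrays and on 0 ITNK and 0 LAK arrays. The gene lies on chromosome 17 (31207868 to 31259681). ILMN_2456730, its single probe, read 4.84, 4.74, 4.68 and 4.49 in ITNK cells, 4.38, 4.25, 4.48 and 4.71 in LAK cells and 5.39, 5.66, 5.74 and 5.50 in DN3 cells. DN3 cells lay above both other groups, which overlapped. The signal was 1.85-fold lower in ITNK than in DN3 cells (adjusted p = 3.89e-05) and 2.11-fold lower in LAK than in DN3 cells (adjusted p = 2.51e-06). Both folds rest on undetected signals, so their size depends on the background correction. ITNK and LAK cells were both below detection, so no fold is given between them. Among all genes, 63 (0.778%) were likewise detected on all DN3 arrays and on no ITNK or LAK array. Raw intensities were 62.2 to 80.7 in ITNK, 60.5 to 77.7 in LAK and 81.5 to 85.1 in DN3 cells, and without background correction the ITNK against DN3 difference was -0.34 and that of LAK against DN3 -0.48, both still past the test. With the authors' values they were -0.37 and -0.54.

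The start regions of Lat, Prkcq and Themis, the genes that lay between the 2 other groups in ITNK cells, are shown with that of Zap70, which did not differ past the test. They are RefSeq windows of 300 bases in GRCm38.p6, from 250 bases before to 50 after the start. Capitals mark matches, on either strand, to the letters TGTGGT (RUNX), AGGAAG (ETS) and CAGNTG (E protein), motifs of factor families known from T cell development. The Lat window is chr7:126369519-126369818 on the minus strand, and the others lie on the plus strand at chr2:11172132-11172431 (Prkcq), chr10:28668110-28668409 (Themis) and chr1:36761548-36761847 (Zap70).
Lat: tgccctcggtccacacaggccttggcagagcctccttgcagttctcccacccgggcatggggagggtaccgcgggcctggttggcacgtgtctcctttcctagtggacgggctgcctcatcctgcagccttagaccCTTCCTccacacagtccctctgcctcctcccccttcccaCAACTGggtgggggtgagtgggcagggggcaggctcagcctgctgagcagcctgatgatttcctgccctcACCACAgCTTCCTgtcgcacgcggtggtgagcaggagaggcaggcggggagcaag
Prkcq: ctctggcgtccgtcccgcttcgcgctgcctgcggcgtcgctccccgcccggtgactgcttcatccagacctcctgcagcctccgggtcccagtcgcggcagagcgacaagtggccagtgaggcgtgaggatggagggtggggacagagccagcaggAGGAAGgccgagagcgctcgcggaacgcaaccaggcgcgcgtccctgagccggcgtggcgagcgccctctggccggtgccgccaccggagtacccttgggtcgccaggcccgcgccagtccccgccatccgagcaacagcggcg
Themis: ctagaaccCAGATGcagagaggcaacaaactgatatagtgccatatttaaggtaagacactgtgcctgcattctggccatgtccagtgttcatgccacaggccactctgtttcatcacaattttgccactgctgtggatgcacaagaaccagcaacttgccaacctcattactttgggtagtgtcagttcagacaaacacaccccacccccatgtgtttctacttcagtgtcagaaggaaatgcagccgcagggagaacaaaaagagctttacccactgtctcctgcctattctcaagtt
Zap70: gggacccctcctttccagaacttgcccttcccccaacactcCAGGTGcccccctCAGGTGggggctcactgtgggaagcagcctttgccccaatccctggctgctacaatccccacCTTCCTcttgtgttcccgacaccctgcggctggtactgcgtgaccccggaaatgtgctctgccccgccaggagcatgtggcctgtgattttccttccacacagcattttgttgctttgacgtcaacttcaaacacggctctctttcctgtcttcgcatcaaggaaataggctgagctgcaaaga

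The Lat window held 1 RUNX, 2 ETS and 1 E protein match. The Prkcq window held 1 ETS match, the Themis window 1 E protein match and the Zap70 window 1 ETS and 2 E protein matches. RefSeq lists 2 start windows for Themis and 3 for Zap70, and another Zap70 window held 1 RUNX match. Of 32851 windows in the table, 16.8% held the RUNX letters, 35.4% the ETS letters and 51.4% the E protein letters. The windows of Lcp2 (2 ETS and 1 E protein match) and Ubash3a (0 matches) are not printed. A match to letters is a description of the window and not a binding site.

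The rest of the pathway was described from 6 lists, which held 65 genes, of which 49 were tested. For ITNK against DN3 17 of the 49 were higher, 18 were lower and 14 did not pass, with a median of 0.07 beside -0.04 over all genes, of which 23.5% were higher and 28.2% lower. For ITNK against LAK 10 were higher, 14 lower and 25 did not pass (median 0.00), beside 18.0% higher and 15.7% lower over all genes. For LAK against DN3 17 were higher, 21 lower and 11 did not pass (median -0.01), beside 28.6% higher and 31.9% lower over all genes. The lists were assembled with earlier results of these data in view, so their counts are descriptions. Genes undetected in a whole group passed the detection filter through the other groups. Their difference from that group was thus favoured in advance.

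Among the 3 proximal kinases tested, Tec was lower in ITNK than in DN3 cells (-0.34, adjusted p = 0.0358) and Csk, which restrains Lck, was higher in ITNK than in LAK cells (0.78, adjusted p = 0.00374). Fyn was 0.57 higher in LAK than in DN3 cells (adjusted p = 0.00217). Of the 13 adaptors and scaffolds, 5 were higher and 2 lower in ITNK than in DN3 cells, beside 23.5% and 28.2% of all genes. The higher ones included relatives of Lat and SLP-76 that natural killer, B or mast cells use. Lat2, the second Lat-family scaffold, averaged 10.41 ± 0.37 in ITNK, 11.19 ± 0.18 in LAK and 6.31 ± 0.25 in DN3 cells (SD, n = 4 each), a difference of 4.10 for ITNK against DN3 (adjusted p = 8.16e-10) and -0.78 for ITNK against LAK (adjusted p = 0.00345). Clnk, an SLP-76 relative, was detected on 0 DN3 arrays and was 5.08-fold higher in ITNK than in DN3 cells (adjusted p = 1.89e-09). Sh3bp2 was higher in ITNK than in DN3 cells by 2.45 (adjusted p = 3.92e-09). Fyb (ADAP), which binds SLP-76, was lower in ITNK than in DN3 cells (-1.29, adjusted p = 1.04e-05) and than in LAK cells (-1.04, adjusted p = 0.000129). Sh2d2a (TSAd), an adaptor that binds Lck, was higher in ITNK than in DN3 cells (0.52, adjusted p = 0.00442) and lower than in LAK cells (-1.15, adjusted p = 1.01e-05). Grap2 (Gads), which links SLP-76 to Lat, was lower in ITNK than in DN3 cells (-0.53, adjusted p = 0.0031) and higher than in LAK cells (0.47, adjusted p = 0.0113).

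Of 8 second messenger and exchange factor genes, 2 were higher and 5 lower in ITNK than in DN3 cells. Over all genes 23.5% were higher and 28.2% lower. Plcg2, the phospholipase C gamma form used in natural killer and B cells, was higher by 2.62 (adjusted p = 9.64e-10). Rasgrp1, the diacylglycerol-activated Ras exchange factor, was lower by 1.12 on the log2 scale (difference -1.12, adjusted p = 2.8e-06) and was higher in ITNK than in LAK cells by 0.54 (adjusted p = 0.00256). Carmil2, a scaffold of the CD28 pathway, differed by -1.51 (adjusted p = 7.35e-06) and Itpkb by -0.96 (adjusted p = 1.37e-05). In the NF-kB and NFAT list 2 of 9 genes were higher and 4 lower, beside those same 23.5% and 28.2% of all genes. Nfatc1 differed by -1.04 between ITNK and DN3 cells (adjusted p = 0.000798). Against LAK cells, Malt1, a protease of the NF-kB arm, was lower in ITNK cells (-1.30, adjusted p = 1.32e-05).

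Of 12 inhibitors, 7 were higher and 3 lower in ITNK than in DN3 cells, beside 23.5% and 28.2% of all genes. The ERK phosphatase Dusp6 was higher by 2.99 (adjusted p = 2.66e-09), Dok2 by 1.76 (adjusted p = 6.15e-08) and Dusp5 by 1.16 (adjusted p = 1.05e-05). Dgka, which removes diacylglycerol, was lower in ITNK than in DN3 cells (-1.47, adjusted p = 2e-05) and higher than in LAK cells (1.5, adjusted p = 2.74e-05). Lat, Prkcq and Themis had this order too, as did Rasgrp1, Prkca, Grap2 and Cd3d, and 6.84% of all genes. Of the 4 other protein kinase C isoforms tested, Prkcb (-2.46), Prkcd (-1.44) and Prkca (-0.92) were lower in ITNK than in DN3 cells, as Prkcq was, and Prkch was higher (0.60, adjusted p = 0.000604). Prkca was higher in ITNK than in LAK cells by 2.58 (adjusted p = 2.57e-07). Plcg1 and Syk did not pass the detection filter.

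Of the receptor chains upstream of the 6 genes, Cd3d was lower in ITNK than in DN3 cells (-1.26, adjusted p = 0.00012), while Cd3e (-0.52, adjusted p = 0.123), Cd3g (-0.41, adjusted p = 0.0534) and Cd247 (-0.11, adjusted p = 0.47) did not pass. Cd3e, Cd3g and Cd3d were higher in ITNK than in LAK cells by 4.96, 4.41 and 3.82. The transmembrane adaptors Trat1 and Sit1 exceeded LAK by 62.7-fold and 7-fold, with 0 LAK arrays detected for both. Ptcra, whose product pairs with the beta chain before alpha rearranges, was detected on 4 DN3 arrays and on 0 ITNK and 0 LAK arrays. It was lower in ITNK than in DN3 cells by 2.64-fold (adjusted p = 2.17e-07). It passed the detection filter through the DN3 arrays, so this difference was favoured in advance and is no added support. On the natural killer side, 6 of 7 genes were higher in ITNK than in DN3 cells and none was lower. Over all genes 23.5% were higher and 28.2% lower. Fcer1g differed by 5.93 (adjusted p = 1.31e-09) and Tyrobp was 35.6-fold higher (adjusted p = 3.36e-11). Pik3ap1 (BCAP) was 2.42-fold higher in ITNK than in DN3 cells, and it was lower in ITNK than in LAK cells (-3.72, adjusted p = 1.91e-09). Tyrobp and Pik3ap1 were each detected on 0 DN3 arrays. Against LAK cells 0 of the 7 genes were higher in ITNK cells and 5 were lower. Among these, Tyrobp differed by -1.07 (adjusted p = 0.000119). Over all genes 18.0% were higher and 15.7% lower in that comparison.

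**Figure D3:**
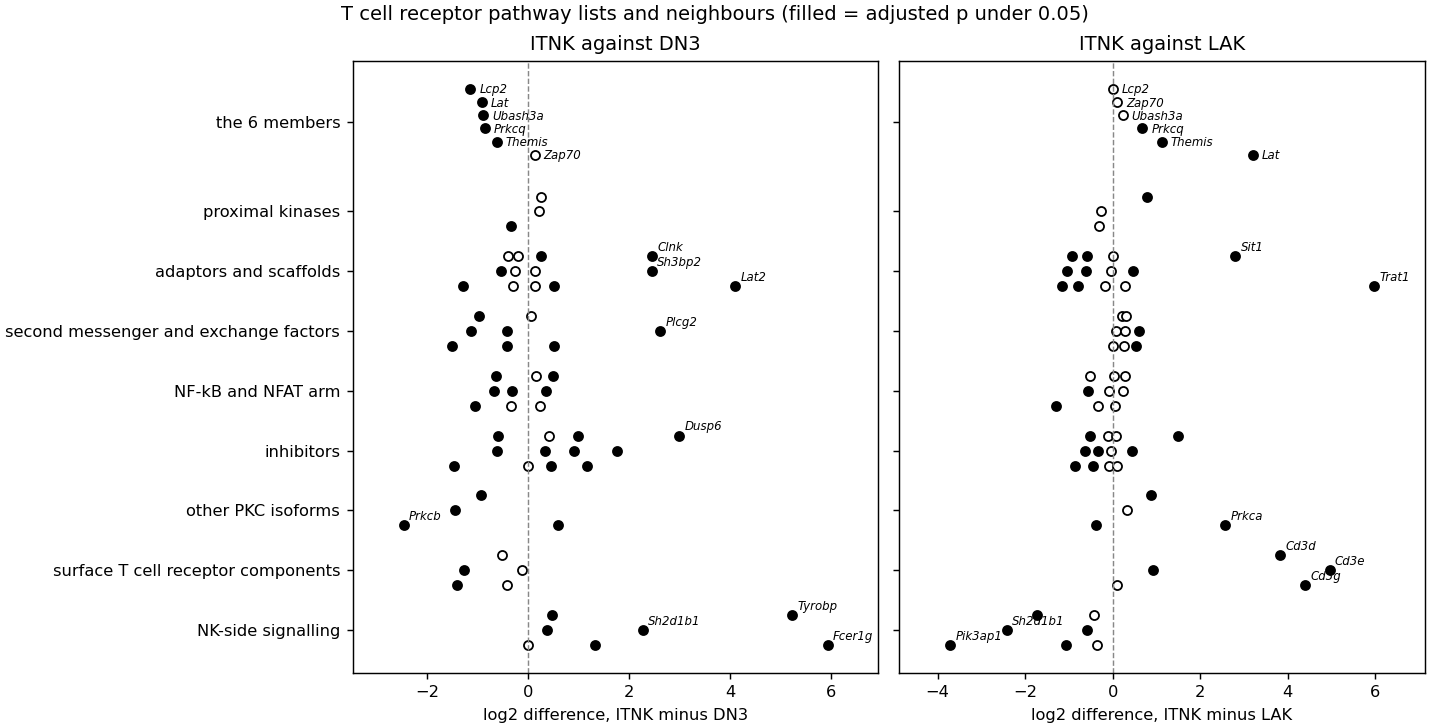
Log2 difference (x axis) of ITNK against DN3 cells (left) and against LAK cells (right) for the tested genes of each pathway list and of the receptor and natural killer lists, with the 6 genes in the top row and filled points where the adjusted p was under 0.05. In the left panel the adaptor, inhibitor and natural killer rows extend far to the right of 0, and 3 of the 4 other protein kinase C isoforms lie to its left.

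Markers of other cells were also read. The summed signal of 10 detected stromal markers, with Thy1 left out because T cells also express it, was 1310 to 2030 in ITNK, 212 to 218 in LAK and 1540 to 4820 in DN3 cells. In ITNK cells 9 of these 10 were higher than in LAK cells, beside 18.0% of all genes. In ITNK cells 5 were lower and 2 higher than in DN3 cells, beside 28.2% and 23.5% of all genes. In LAK cells all 10 were lower than in DN3 cells, beside 31.9% of all genes. No LAK array detected any of the 10, so they passed the detection filter through ITNK and DN3 arrays. Both counts that involve LAK cells were thus favoured in advance and are no added support. The part of these stromal markers in the differences of the 6 genes was not tested. Of the 1 B cell, 3 myeloid, 4 mast cell, 1 erythroid and 3 gamma-delta or NKT genes tested, 5 in all were higher and 2 lower in ITNK than in DN3 cells. Over all genes 51.7% differed in that comparison, so this count is not read as a result. The genes called included Hba-a1 (2.91, adjusted p = 1.24e-07) and Kit (1.44, adjusted p = 5.2e-05) among the higher ones and Cd79b (-0.50, adjusted p = 0.00318) among the lower ones. Their part in the results was not tested either.

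The genes most like each of the 6 were those with the smallest root mean square distance over the 12 arrays, each gene centred on its own mean. Closest to Lat were Nsg2 (0.29), Ralgps2 (0.30) and Gm525 (0.34), each detected on 4 ITNK, 0 LAK and 4 DN3 arrays, and 0 genes lay within 0.2. Closest to Themis were Gata3 (0.21), P2rx4 (0.25) and Ccdc28b (0.25), again with 0 within 0.2. Prkcq had Mier1 (0.10), Ifngr1 (0.12) and Itprip (0.12) nearest and 35 genes within 0.2. Lcp2 by its brightest probe had Zfp871 (0.12), Casp2 (0.14) and Trpm7 (0.15) nearest and 36 within 0.2. Ubash3a had R3hdm4 (0.14), Tlk1 (0.15) and Ovgp1 (0.15) nearest and 62 within 0.2. Zap70, whose array values varied little, had Hacd4 (0.10), Fmr1 (0.10) and Tox4 (0.11) nearest and 483 genes within 0.2. The distances are smaller for genes that vary little, so they are not ranked between the 6.

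**Figure D4:**
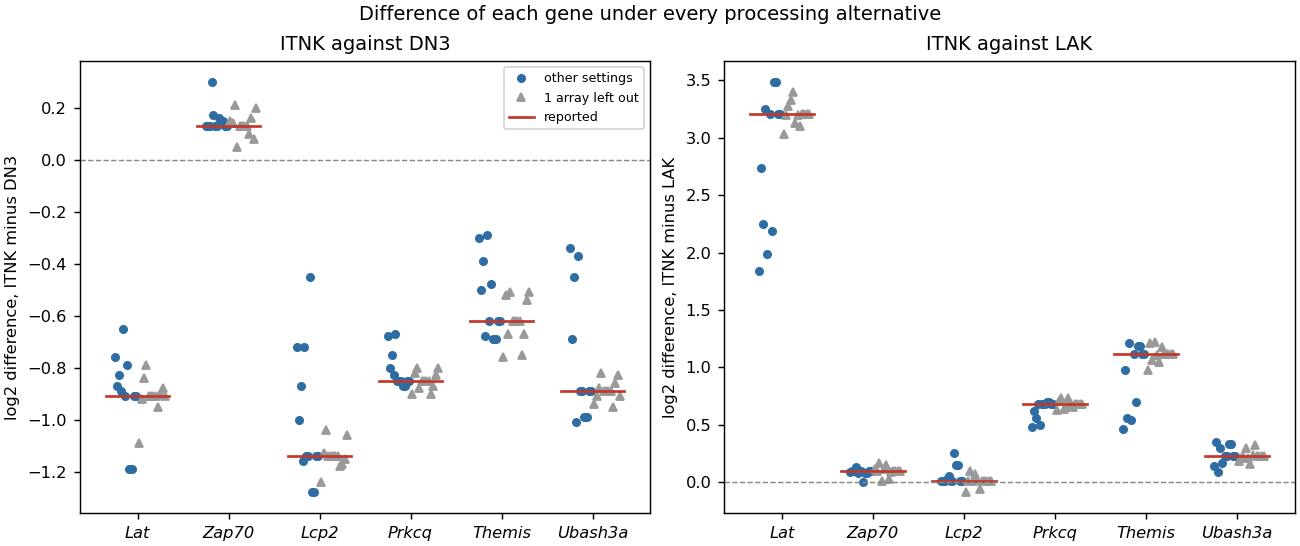
Log2 difference (y axis) of each of the 6 genes (x axis) under each processing setting (circles), with 1 array left out (triangles) and as reported (lines), for ITNK against DN3 cells on the left and against LAK cells on the right. The signs of Lat, Prkcq, Themis and Ubash3a hold across the settings shown, several sizes shrink without background correction (for ITNK against DN3 Ubash3a stands at -0.34 in place of -0.89, Lcp2 at -0.72 in place of -1.14 and Themis at -0.30 in place of -0.62), and the values of Zap70 lie near 0.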

How the data were processed

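Total RNA of 12 samples, 4 each of ITNK, LAK and DN3 cells, was measured on Illumina bead arrays. Per the file headers, the authors deposited the average bead intensity of each probe, with no normalization between arrays. They also deposited a detection fraction, per the file headers, from which a detection p was taken as 1 minus the value. The authors' own processed values, also deposited, are log2 by their range, made by a method not given in the sources used here. From the scanner table, intensities were background corrected with an offset of 16 and quantile normalized (neqc, limma 3.58.1, R 4.3.3). Probes detected at p under 0.01 on at least 4 of 12 arrays were kept (13571). Genes with 1 symbol were represented by their brightest probe (8100), and other probes of the 6 genes were tested among all detected probes. A single linear model with limma's moderated test and Benjamini-Hochberg adjustment gave all comparisons, and the model was tested on simulated data. The 6 genes and all lists were chosen with earlier results of these data known. Beside the 6 genes, the text names Bcl11b, up to 3 list genes with the largest differences past the test and list genes at least 2-fold changed in any comparison, and 3 most alike genes each. Cd247 meets this rule through LAK against DN3 (2.05-fold), while Grap2 and the marker genes lie outside it. Cd247, Grap2 and the marker genes were chosen after their values were seen. The array number limits the precision, and the depth of a bead array is not a count. A few pathway genes are not reported here.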

Additional observations from a re-analysis of the deposited data

Results flagged for a closer look

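Over the 33 sets of 4 arrays formed by the 11 detected probes and 3 cell types, 2 held an array far from the rest, where chance alone marks about 1 in 20 such sets. The cDNA clone probe of Lat, ILMN_1242795, read 4.44 on LAK 1 while the nearest other LAK array read 4.50. The cDNA clone probe of Themis, ILMN_1248231, read 5.01 on LAK 3 while the nearest other LAK array read 4.73. Neither probe was detected on any LAK array, so both values lie in the background range.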

How the results depend on the processing

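Over 25 settings and 27 results, 622 of 630 recomputed values kept their direction and side of the threshold, or stayed within 1.5 times the count. With only probes detected on all 12 arrays, 3 of the 6 genes remained (Lat, Themis and Ubash3a have no value there), of which 2 passed between ITNK and DN3, 1 between ITNK and LAK and 2 between LAK and DN3, and the genes passing for ITNK against LAK came to 1787. Near-zero differences changed sign without any passing: Lcp2 for ITNK against LAK gave -0.09 without ITNK 1 and -0.06 without LAK 3 (range -0.09 to 0.10 over arrays left out), and Zap70 for LAK against DN3 gave -0.02 without LAK 2 and -0.01 without DN3 3 (range -0.02 to 0.10). With an array left out the genes passing numbered 3718 to 4383 between ITNK and DN3, 2352 to 2720 between ITNK and LAK and 4568 to 4903 between LAK and DN3, while 5, 3 and 5 of the 6 genes passed. Samples with the same replicate number did not deviate together (r from -0.34 to 0.21 over 12 pairs, 2 above 0.1). With the replicate block 5, 3 and 5 of the 6 genes, 33, 23 and 37 of the wider pathway genes and 4024, 2558 and 4771 of all genes passed. With slide as a block 3595, 2246 and 3322 genes passed, and LAK and DN3 cells share no slide for a within-slide value. Low signal over background limits Themis, Ubash3a and, in LAK cells, Lat.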
